A study of Mus musculus with 9 samples.

Results

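PRDM14 is a zinc-finger protein of the PR domain family that binds DNA and recruits co-repressors in pluripotent cells and in primordial germ cells. In mouse embryonic stem cells it is known for holding down FGF/ERK signalling and the genes of de novo DNA methylation, and for bringing polycomb proteins and the co-repressor CBFA2T2 to its sites. The comparison described here is that of the RNA-seq libraries labelled PRDM14 knockout with those labelled wild type, over all genes. Its members were the 6 libraries that carry these 2 genotype labels, of 9 in the series. Of 33233 genes in the files, 16532 had enough counts to be tested.

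The cells were KH2, a mouse embryonic stem cell line. All groups were grown with Lif on feeder cells that were removed before RNA extraction, and polyadenylated RNA was made into strand-specific dUTP libraries. Wild-type, PRDM14 knockout and CBFA2T2 knockout cells had 3 biological replicates each, and the design speaks of each genotype as a line. The labels do not say whether replicates were separate clones or cultures, or which alleles were targeted, so genotype and line cannot be told apart, and the p-values measure the spread between these libraries, which may be technical. Total counts were 15925489 to 17131636 in the PRDM14-labelled libraries and 10309196 to 17998669 in wild type. Levels are given as CPM, counts scaled to 1000000 in each library over the tested genes, in the order of replicates 1, 2 and 3. CPM are not divided by gene length, so they compare libraries for a gene and not genes with each other. A gene rose or fell when its p from edgeR's quasi-likelihood test, adjusted over all genes tested, was under 0.05. Log2 fold changes are PRDM14-labelled over wild type, with their standard error. Gene positions are those in the files, which match GRCm38.

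Prdm14 RNA was not reduced under the label (ENSMUSG00000042414, chromosome 1, 13113457 to 13127163). Its level was 41.4, 42.2 and 63.5 CPM in the PRDM14-labelled libraries and 18.4, 14.6 and 14.98 CPM in wild type (log2 fold change 1.61 ± 0.17, adjusted p = 3.46e-05). Every PRDM14-labelled library was above every wild-type library. The files hold sums over whole genes, in which an exon cannot be seen, so the group is called PRDM14-labelled here and nothing is drawn about the protein. The embryonic stem cell markers were present in both groups. Pou5f1, the core pluripotency factor, was at 444, 407 and 453 against 730.4, 769 and 773 CPM, and Esrrb, a nuclear receptor of naive cells, was at 605, 544 and 593 against 576, 557 and 598 CPM. Pou5f1 fell and Esrrb was not called (adjusted p = 0.956). Of the 10 markers of embryonic stem cells 7 fell and 1 rose, or 2 without PRDM14-labelled replicate 1.

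The PRDM14-labelled libraries were less alike among themselves than the wild-type libraries. The chi-square per degree of freedom between pairs was 15.22 to 19.68 in the PRDM14-labelled group and 3.11 to 6.37 in wild type, so no library was a copy of another. On the first principal component of log2 CPM, which held 65.9% of the variance, wild type lay at 34.93 to 42.86, the PRDM14-labelled libraries at -5.88, -21.59 and -13.56, and the CBFA2T2 knockout at -32.13 to -22.61. In PRDM14-labelled replicate 1 genes of chromosome 6 were raised as a whole, and in replicate 3 several Y-linked genes and Zscan4d were far above the other replicates. Values without these libraries are given beside the genes and lists described that they moved most.

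Against wild type 4941 of 16532 genes were called (29.9%). The rises numbered 2408 (14.6%) and the falls 2533 (15.3%), and the libraries of both groups did not overlap for 7455 genes (45.1%). Large changes were more often rises: 739 rises and 431 falls were at least 2-fold, and 51 rises and 31 falls were at least 3 on the log2 scale. Small changes leaned to falls, with 771 rises and 1265 falls under 0.5 on the log2 scale. The split depended on level. Among genes with a mean of 100 CPM or more 357 rose and 876 fell, while among those at 1 to 10 CPM 656 rose and 336 fell. The median log2 fold change over all genes tested was 0.02. The counts of each list are to be read against the 14.6% and 15.3% of all genes, and a share near those is no result about the list.

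**Figure D1:**
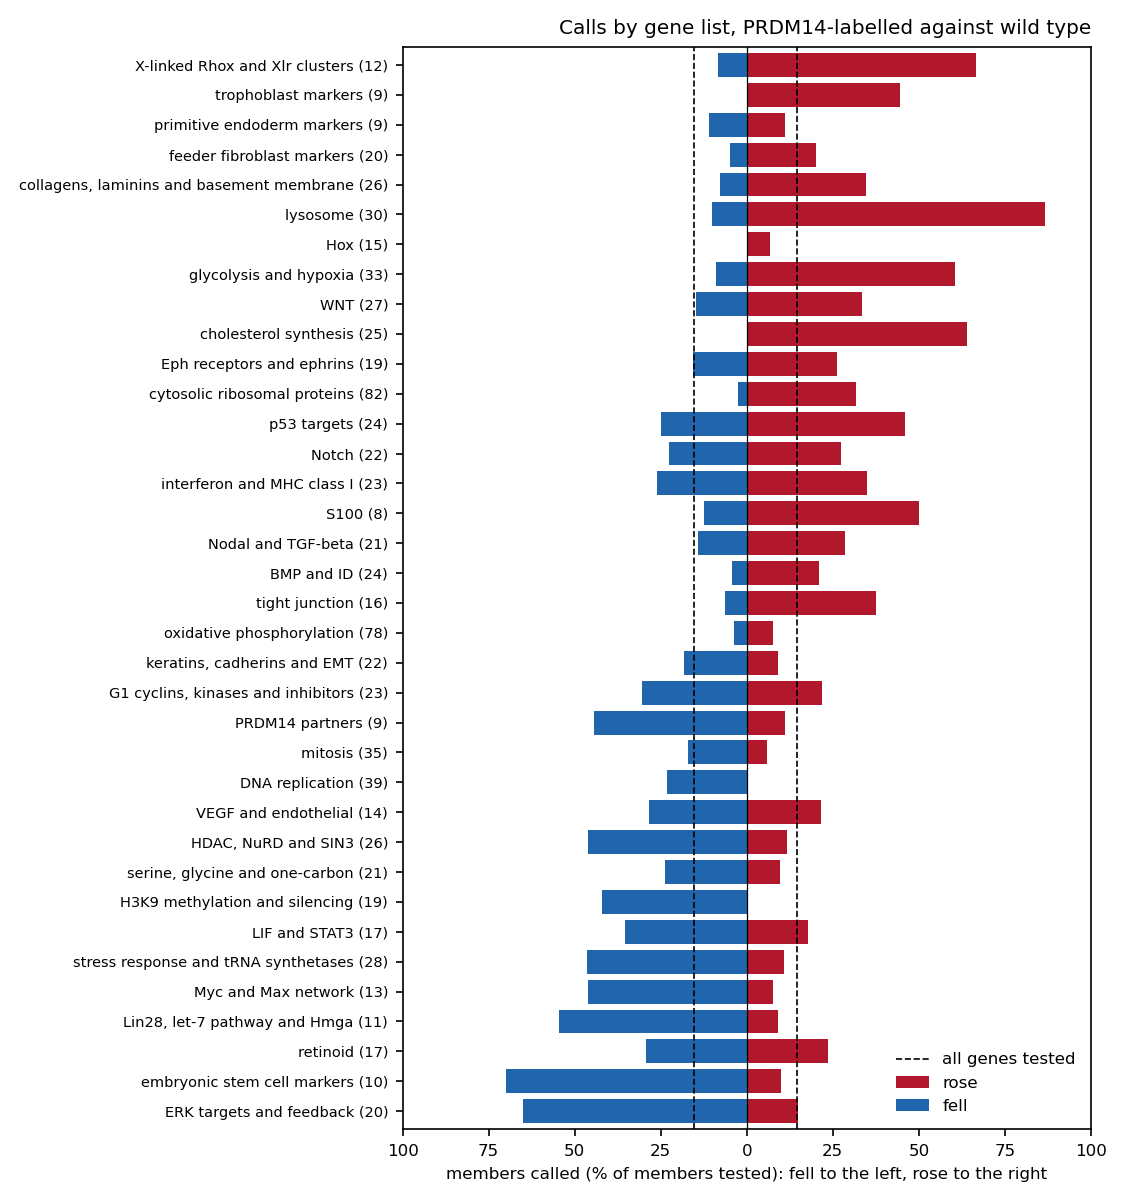
Share of the tested members of each gene list with at least 8 members tested that rose (red, to the right) or fell (blue, to the left) in the PRDM14-labelled libraries against wild type, in percent, with the number tested in brackets. Lists are ordered by their median log2 fold change and the dashed lines mark the 14.6% and 15.3% of all genes tested that rose and fell; of the lists drawn, lysosome genes have the longest red bar and embryonic stem cell markers the longest blue bar.

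Lef1, a transcription factor of the WNT pathway, had the lowest adjusted p of all falls among the genes named here (ENSMUSG00000027985, chromosome 3, 131110471 to 131224356). It was at 8.57, 8.504 and 6.57 CPM in the PRDM14-labelled libraries and 78.4, 86.8 and 102 CPM in wild type (log2 fold change -3.50 ± 0.14, adjusted p = 8.56e-09). All 3 PRDM14-labelled libraries were low and the groups did not overlap. Rarg, a retinoic acid receptor, was at 92.5, 86.8 and 78.1 against 260.1, 292 and 299 CPM (log2 fold change -1.72 ± 0.08, adjusted p = 8.62e-08). Myrf, a membrane-bound transcription factor best known from myelinating cells, was at 21.4, 18.2 and 12.7 against 149, 157 and 167 CPM (log2 fold change -3.17 ± 0.15, adjusted p = 1.02e-07). Both were low in every PRDM14-labelled library. Other falls of low adjusted p were of Dnmt3a (log2 -1.87), Fam169a (-1.50, a gene that overlaps others), Grb10 (-1.50), an imprinted adaptor of the insulin receptor, Slc39a14 (-2.19), a zinc transporter, Fblim1 (-1.23) and Senp3 (-1.07), a SUMO protease.

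Among the rises Flt1, a receptor of VEGF, was at 56.1, 63.1 and 56.3 CPM against 7.94, 4.997 and 4.21 CPM in wild type (log2 fold change 3.32 ± 0.18, adjusted p = 1.62e-07; ENSMUSG00000029648, chromosome 5, 147561604 to 147726011). Efnb1, a membrane-bound ligand of Eph receptors, was at 28.1, 29.5 and 34.02 against 6.91, 5.796 and 6.21 CPM (log2 fold change 2.26 ± 0.13, adjusted p = 1.62e-07; ENSMUSG00000031217, chromosome X, 99136130 to 99148991). Cldn4, a claudin of tight junctions, was at 388, 446 and 415 against 136, 117 and 115 CPM (log2 fold change 1.76 ± 0.10, adjusted p = 1.62e-07). In these genes each PRDM14-labelled library stood above each wild-type library by more than the spread within either group. Tfcp2l1, a transcription factor of naive embryonic stem cells downstream of Lif, was at 518, 492 and 500.2 against 199.8, 173 and 204 CPM (log2 fold change 1.39 ± 0.08, adjusted p = 2.5e-07). Taok3, a kinase of the STE20 family, rose by 1.83 on the log2 scale, Copz2, a subunit of the coatomer coat of vesicles, by 3.12, Plagl1, an imprinted zinc-finger factor, by 2.52, Sirpa, the receptor of CD47, by 1.66, and Egr2, an immediate early factor, by 1.94.

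**Figure D2:**
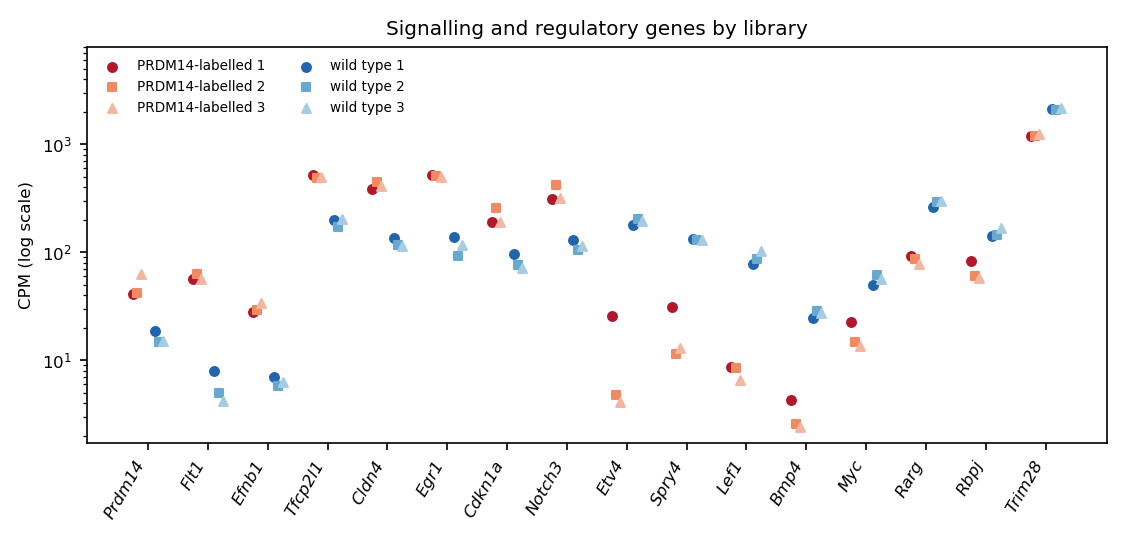
CPM on a log scale of 16 signalling and regulatory genes in the 3 PRDM14-labelled (red shades) and 3 wild-type (blue shades) libraries, each point a library. In the genes shown the groups do not overlap, and in Etv4, Spry4 and Bmp4 PRDM14-labelled replicate 1 stands above replicates 2 and 3.

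The largest falls left little RNA of a gene in the PRDM14-labelled libraries. Pdyn, which encodes the opioid precursor prodynorphin, was at 0.466, 0.0607 and 0 against 5.31, 4.597 and 6.01 CPM (log2 fold change -4.82). Etv4, an ETS factor of the PEA3 group, was at 25.9, 4.799 and 4.06 against 180.1, 203 and 194 CPM (-4.04). In both genes replicate 1 was the highest of the PRDM14-labelled libraries, though far below wild type. Without it the log2 fold changes were -7.10 for Pdyn and -5.43 for Etv4. The same held for Col6a5 (-3.52, or -4.45 without replicate 1), Etv1 (-3.29, or -4.23), Tcf15 (-3.17, or -3.84), Bnc2 (-2.97, or -3.74) and Spry4 (-2.83, or -3.42). Pou4f2 (-3.69), Wt1 (-3.65), Tgm3 (-3.602), Myo1f (-3.30), Soga3 (-3.25), Gna14 (-3.19), Pirt (-3.18), Bmp4 (-3.13), Nlrc4 (-3.10) and Chrna9 (-2.97) were also among the 20 largest falls, with Lef1 and Myrf.

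The largest rises were led by the Xlr genes of the X chromosome, a family of near-identical copies first described in lymphocytes. Xlr3a was at 50.1, 74.1 and 76.9 CPM against 8.28, 4.797 and 6.42 CPM (log2 fold change 3.33 ± 0.31, adjusted p = 7.92e-05) and Xlr5a at 10.96, 19.6 and 25.8 against 1.83, 0.3997 and 0.345 CPM (log2 fold change 4.31 ± 0.66, adjusted p = 0.00166). Replicate 1 was the lowest PRDM14-labelled library for both and still above wild type. Reads of these copies may be split or shared between them in the authors' counting, and Xlr5a spans several of its neighbours in the annotation, so the members cannot be counted as separate findings. Wild-type replicate 1 was the highest wild-type library for Xlr5a, Xlr5c, Xlr3b and Xlr4c, and without it their log2 fold changes went from 4.31, 4.10, 3.53 and 3.602 to 5.65, 5.29, 4.35 and 4.19. Of the 37 Rhox and Xlr genes listed, 12 passed the filter on low counts, of which 8 rose and Rhox1 fell (log2 -2.22).

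Other large rises were of genes with little RNA in wild type. Ackr4, an atypical chemokine receptor, was at 18.4, 21.6 and 29.5 against 3.26, 0.5996 and 0.967 CPM (log2 3.71, or 4.83 without wild-type replicate 1). Its span overlaps other genes in the annotation. S100a13, a calcium-binding protein of the S100 family, was at 19.6, 35.9 and 34.5 against 3.88, 3.298 and 1.59 CPM (log2 fold change 3.35 ± 0.35, adjusted p = 0.000101), and its neighbour S100a1 at 4.95, 11.5 and 11.7 against 1.599, 0.899 and 0.621 CPM (log2 fold change 3.11 ± 0.38, adjusted p = 9.07e-05). Replicate 1 was the lowest PRDM14-labelled library for both S100 genes. Mogat2, an acyltransferase of triglyceride synthesis, rose by 3.81 on the log2 scale, Ccdc68 by 3.50, Mcoln3, a cation channel of endosomes and lysosomes, by 3.42, Cidea, a protein of lipid droplets, by 3.39, Ccdc80 by 3.13 and Myh13, a myosin heavy chain, by 3.06.

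Counted in CPM, the largest gains and losses fell on abundant genes. Slc2a3, a glucose transporter on chromosome 6, gained most, with 5338, 2524 and 2375 CPM against 1659.7, 1428 and 1423 CPM (log2 fold change 1.18 ± 0.31, adjusted p = 0.0279). Replicate 1 was far above the other PRDM14-labelled libraries, and without it the log2 fold change was 0.70. The call held without replicate 1, and was lost without any 1 of the wild-type libraries (adjusted p = 0.0532, 0.0787 and 0.0848). Peg10, an imprinted gene derived from a retrotransposon and also on chromosome 6, was at 2754, 1294 and 1250.00 against 826, 652 and 748 CPM (log2 fold change 1.25 ± 0.32, adjusted p = 0.0265) and lost its call without wild-type replicate 2 or 3 (adjusted p = 0.0783 and 0.0757). Without PRDM14-labelled replicate 1 its log2 fold change was 0.78. Scd2, a fatty acid desaturase, was at 1322, 1049 and 1035 against 658, 580.3 and 609.6 CPM (log2 fold change 0.88 ± 0.10, adjusted p = 2.23e-05), and Malat1, a nuclear noncoding RNA, rose by 0.62 on the log2 scale. Ftl1, the light chain of ferritin, rose by 0.42 and the elongation factors Eef2 and Eef1a1 by 0.31 and 0.29.

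The largest losses in CPM were of RNA-binding and chromatin proteins. Ncl, which encodes nucleolin, was at 3528, 3456 and 3786 against 4769, 5002 and 4879 CPM (log2 fold change -0.44 ± 0.07, adjusted p = 0.0005), and counts of small RNAs within its introns may add to it. Trim28, a co-repressor of KRAB zinc-finger proteins, was at 1188, 1192 and 1238 against 2116, 2067 and 2175 CPM (log2 fold change -0.81 ± 0.07, adjusted p = 3.07e-06; ENSMUSG00000005566, chromosome 7, 13024152 to 13031035). Both were low in every PRDM14-labelled library, and for Trim28 the values within each group were close. G3bp2, an RNA-binding protein of stress granules, fell by 1.62 on the log2 scale, L1td1, an RNA-binding protein of pluripotent cells, by 1.25, Phc1, a subunit of polycomb complex PRC1, by 1.20, Mkrn1, a ubiquitin ligase, by 1.24, Hnrnpu by 0.53 and Eif4g2 by 0.43. Phc1 and Mkrn1 lie on chromosome 6 and were highest in replicate 1 among the PRDM14-labelled libraries, without which their log2 fold changes were -1.36 and -1.57.

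Genes reported as repressed by PRDM14 in mouse embryonic stem cells did not move one way. The de novo methyltransferases Dnmt3a and Dnmt3b and their cofactor Dnmt3l fell, and the FGF receptors Fgfr1 and Fgfr2 rose. Dnmt3a was at 142, 116 and 128 against 445, 475 and 487 CPM (log2 fold change -1.87 ± 0.10, adjusted p = 1.02e-07). Fgfr2 was at 62.2, 43.5 and 46.9 against 17.6, 14.9 and 18.02 CPM (log2 fold change 1.59 ± 0.13, adjusted p = 3.52e-06) and overlaps other genes in the annotation. Fgfr1 was at 249, 249 and 238 against 155, 142 and 155 CPM (log2 fold change 0.70 ± 0.07, adjusted p = 9.64e-06). Dnmt3l, with 173, 63.8 and 102 against 291, 292 and 303 CPM (log2 fold change -1.38 ± 0.31, adjusted p = 0.0152), varied most among the PRDM14-labelled libraries and lost its call without replicate 3 (adjusted p = 0.0629). Of 9 genes of proteins that work with PRDM14, 4 fell and 1 rose. Jarid2, a subunit of polycomb complex PRC2, fell by 1.79 on the log2 scale, the methylcytosine oxidases Tet2 and Tet1 by 0.99 and 0.76, and the PRC2 subunit Eed by 0.55. Suz12 and Ezh2, which complete PRC2 with Eed, were not called (adjusted p = 0.271 and 0.619), and neither was Cbfa2t2 (adjusted p = 0.844). Cbfa2t3, a relative of Cbfa2t2, rose at a low level, 1.57, 1.34 and 1.81 against 0.571, 0.3997 and 0.7596 CPM, and lost its call without PRDM14-labelled replicate 3 or wild-type replicate 2.

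FGF4 signals through FGF receptors, RAS and ERK in embryonic stem cells, and ERK turns on its own inhibitors of the Sprouty, Spred and Dusp families. Of 20 targets and feedback genes of ERK, 13 fell, 3 rose and 4 were not called, with a median log2 fold change of -0.78. The count of falls was 13 without each library in turn. Among the inhibitors Spred1 was at 58.7, 47.99 and 48.9 against 123, 133 and 130.4 CPM (log2 fold change -1.31 ± 0.09, adjusted p = 9.58e-07), and Spred2 and Dusp6, a phosphatase of ERK, fell by 1.05 and 0.77 on the log2 scale. Ccnd1, which encodes cyclin D1, was at 167, 140.5 and 157 against 297, 314 and 299.7 CPM (log2 fold change -0.97 ± 0.09, adjusted p = 4.7e-06) and Myc at 22.5, 14.7 and 13.6 against 49.8, 62.2 and 56.97 CPM (log2 fold change -1.73 ± 0.19, adjusted p = 6.32e-05). The groups did not overlap for any of these genes. The immediate early factor Egr1 went the other way, with 525, 509 and 499 against 139, 92.4 and 117 CPM (log2 fold change 2.13 ± 0.15, adjusted p = 4.79e-06). Egr2, which is outside the list, rose with it. Fos and Dusp1 also rose (log2 0.84 and 0.56), but lost their calls without any 1 PRDM14-labelled library and without wild-type replicate 2 or 3, so that Egr1 was then the only rise.

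WNT ligands stabilise beta-catenin, which acts with the TCF and LEF factors. Of 27 WNT genes tested 9 rose, 4 fell and 14 were not called. The share of falls, 14.8%, was near that of all genes. The falls were of Lef1, of the secreted inhibitor Notum and of the receptors Fzd7 and Fzd5. Notum was at 4.43, 3.46 and 3.69 against 14.3, 20.3 and 21.4 CPM (log2 fold change -2.27 ± 0.20, adjusted p = 4.4e-06), with an antisense gene over it, and Fzd7 at 84.2, 101 and 86.4 against 185, 177 and 202 CPM (log2 fold change -1.05 ± 0.10, adjusted p = 7.16e-06). Wnt3, a ligand, was at 7.46, 10.4 and 7.13 against 1.77, 0.999 and 1.73 CPM (log2 fold change 2.43 ± 0.30, adjusted p = 5.72e-05). Cdx1, a homeobox gene that WNT induces, was at 19.4, 11.2 and 19.6 against 3.71, 5.396 and 4.49 CPM (log2 fold change 1.90 ± 0.23, adjusted p = 6.14e-05). Axin2, the usual feedback target of the pathway, rose to 73.7, 119 and 89.99 from 43.4, 38.2 and 39.6 CPM (log2 fold change 1.22 ± 0.15, adjusted p = 9.4e-05), Rnf43, a ligase that removes receptors, by 2.29 on the log2 scale and the target Sp5 by 2.65. Dkk1, an inhibitor, rose by 2.83 from under 1 CPM in every wild-type library, or by 2.01 without PRDM14-labelled replicate 1, its highest library. Ctnnb1, which encodes beta-catenin, was at 622, 588 and 643 against 612, 613 and 641 CPM and was not called (adjusted p = 0.926).

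In the BMP pathway the ligand Bmp4 fell, while of the ID genes it is known to induce Id3 and Id4 rose and Id1 and Id2 were not called. Bmp4 was at 4.25, 2.55 and 2.38 against 24.4, 28.7 and 27.6 CPM (log2 fold change -3.13 ± 0.26, adjusted p = 3.55e-06). Id4 was at 10.1, 11.4 and 13.01 against 3.77, 2.298 and 2.76 CPM (log2 fold change 1.93 ± 0.20, adjusted p = 1.31e-05) and Id3 at 22.4, 36.4 and 31.5 against 13.02, 10.5 and 9.87 CPM (log2 fold change 1.43 ± 0.21, adjusted p = 0.0005). The ID proteins are inhibitors of bHLH factors. Bmp7, another ligand, was at 15.4, 21.6 and 20.3 against 5.598, 4.497 and 2.62 CPM (log2 fold change 2.16 ± 0.22, adjusted p = 1.87e-05). Of 24 BMP and ID genes tested 5 rose and 1 fell, and with the DESeq2 Wald test or without PRDM14-labelled replicate 1 it was 2 that fell. Msx2, a homeobox target, and the receptor Acvr1 were the other rises (log2 1.78 and 0.61), and Acvr1 lost its call without wild-type replicate 2 (adjusted p = 0.0516).

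Genes of Nodal and TGF-beta signalling gave 6 rises and 3 falls of 21 tested. Inhbb, a subunit of activin B, was at 7.11, 8.02 and 6.44 against 42.9, 38.8 and 42.2 CPM (log2 fold change -2.52 ± 0.21, adjusted p = 4.62e-06). Lefty1, a secreted inhibitor of Nodal, was at 252, 302 and 403 against 132, 130.1 and 127 CPM (log2 fold change 1.30 ± 0.20, adjusted p = 0.00144). Inhbb was low and Lefty1 was high in every PRDM14-labelled library. Tdgf1, the co-receptor of Nodal, fell by 0.54 on the log2 scale and Skil, a repressor of SMADs, by 0.35. Without wild-type replicate 3 only 3 of the 6 rises were called.

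LIF acts through Lifr and JAK kinases on STAT3. Of 17 genes of the pathway 3 rose, 6 fell and 8 were not called. Beside the rise of Tfcp2l1, Jak2 was at 18.7, 23.4 and 16.2 against 9.65, 7.39 and 9.18 CPM (log2 fold change 1.14 ± 0.16, adjusted p = 0.000177). The receptor Lifr was at 78.8, 56.98 and 56.5 against 131, 124 and 148 CPM (log2 fold change -1.07 ± 0.15, adjusted p = 0.000335), and Klf5, a Kruppel-like factor, at 95.8, 83.9 and 72.7 against 202, 208 and 235 CPM (log2 fold change -1.35 ± 0.17, adjusted p = 0.000327). Lifr and Klf5 were low in every PRDM14-labelled library. Gbx2, a homeobox factor, fell by 2.49 on the log2 scale and the kinase Pim1 by 0.56. Socs3, the feedback inhibitor, was at 116, 65.3 and 62.7 against 132, 119 and 124 CPM and was not called (adjusted p = 0.0648).

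Notch receptors act with RBPJ on the Hes and Hey genes. Notch3 was at 311, 424 and 316 CPM in the PRDM14-labelled libraries and 131, 104 and 115 CPM in wild type (log2 fold change 1.58 ± 0.12, adjusted p = 3.95e-06). Rbpj, the DNA-binding partner, was at 82.4, 60.3 and 58.03 against 140.2, 143 and 167 CPM (log2 fold change -1.17 ± 0.13, adjusted p = 2.94e-05), and the receptor Notch4 at 7.81, 12.1 and 9.32 against 20.96, 19.5 and 25.1 CPM (log2 fold change -1.17 ± 0.17, adjusted p = 0.000222). Notch3 was high and Rbpj and Notch4 were low in all 3 libraries. Rfng, a glycosyltransferase of the receptors, and the ligand Dll1 fell (log2 -0.58 and -0.54), and the targets Hey1 and Hes1 rose (0.87 and 0.77). Of 22 genes 6 rose and 5 fell, and without PRDM14-labelled replicate 2 or wild-type replicate 2 it was 3 that rose.

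Some retinoic acid receptors fell, while other retinoid genes changed in either direction. With Rarg, the receptor Rara fell by 0.62 on the log2 scale, and Rxrg went from 3.26, 5.696 and 4.56 CPM in wild type to 0.117, 0.304 and 0.375 CPM (log2 fold change -4.05 ± 0.47, adjusted p = 4.02e-05). Crabp2, which carries retinoic acid to the nucleus, was at 11.8, 12.3 and 15.4 against 4.74, 5.996 and 4.07 CPM (log2 fold change 1.43 ± 0.20, adjusted p = 0.000145), and the retinol receptor Stra6 and the synthesis enzyme Aldh1a2 rose at low levels (log2 1.65 and 1.26). Crabp1, the other carrier of retinoic acid in the list, fell by 0.497. Of 17 tested, 4 rose and 5 fell, or 3 and 3 without wild-type replicate 3. Rarg lies in the only run of at least 7 neighbouring tested genes that all changed one way. This run on chromosome 15, 102150526 to 102324356 (GRCm38), held Soat2, Csad, Zfp740, Itgb7, Rarg, Mfsd5 and Espl1, which all fell, with a median log2 fold change of -1.30. Espl1, at its end, fell by little (log2 -0.26) and lost its call without wild-type replicate 2 or 3 (adjusted p = 0.0502 and 0.0542). The run then falls short of 7 genes.

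VEGF and Eph genes gave few firm calls beside Flt1 and Efnb1. Vegfc, a ligand of lymphatic growth, was at 8.68, 6.13 and 7.44 against 24.6, 27.3 and 22.2 CPM (log2 fold change -1.73 ± 0.16, adjusted p = 7.02e-06), and its co-receptor Nrp2 at 17.6, 14.2 and 8.32 against 39.5, 45.4 and 51.7 CPM (log2 fold change -1.77 ± 0.22, adjusted p = 0.000123). Both were low in every PRDM14-labelled library. Vegfa was not called (adjusted p = 0.664), and Kdr, the main signalling receptor of VEGF and a defining endothelial marker, was at 0.758, 0.729 and 1.44 against 0.7996, 1.199 and 0.829 CPM. Of 14 VEGF and endothelial genes 3 rose and 4 fell, or 3 and 2 without wild-type replicate 1. Epha2, an Eph receptor of embryonic stem cells, fell to 167, 137 and 132 from 276, 265 and 272 CPM (log2 fold change -0.90 ± 0.09, adjusted p = 9.29e-06). Of 19 Eph and ephrin genes 5 rose and 3 fell. Leaving out PRDM14-labelled replicate 1 gave 3 rises and 3 falls, replicate 2 gave 2 of each, and replicate 3 gave 4 rises and 1 fall. Leaving out wild-type replicate 1 gave 3 rises and 1 fall, replicate 2 gave 1 of each, and replicate 3 gave 4 rises and 1 fall.

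The lysosome is the acidic organelle in which hydrolases break down proteins, lipids and sugars, and its genes are known to share a promoter element, named CLEAR, that is bound by the factors TFEB and TFE3. Of 30 lysosome genes 26 rose (86.7% of the list, against 14.6% of all genes), 3 fell and 1, Scarb2, was not called. The median log2 fold change was 0.57, and 20 to 25 rose when each library was left out in turn.

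Hexa, a subunit of the hydrolase hexosaminidase (ENSMUSG00000025232, chromosome 9, 59539667 to 59565105), was at 92.95, 114 and 97.4 CPM in the PRDM14-labelled libraries and 41.6, 39.3 and 37.6 CPM in wild type (log2 fold change 1.36 ± 0.11, adjusted p = 2.15e-06). Lamp2, a protein of the lysosomal membrane (ENSMUSG00000016534, chromosome X, 38401357 to 38456454), was at 125, 153 and 137 against 66.3, 61.1 and 60.7 CPM (log2 fold change 1.14 ± 0.10, adjusted p = 5.53e-06). Neu1, a sialidase, was at 47.7, 49.3 and 35.5 against 15.5, 16.99 and 17.2 CPM (log2 fold change 1.42 ± 0.13, adjusted p = 6.02e-06). The groups lay far apart for each, and none was highest in replicate 1. Npc2, which carries cholesterol out of the lysosome, was at 160.1, 172 and 174 against 99.3, 76.8 and 88.5 CPM (log2 fold change 0.93 ± 0.09, adjusted p = 9.5e-06), and the protease Ctsl, known as cathepsin L, at 213, 206 and 220.2 against 134, 119 and 103 CPM (log2 fold change 0.85 ± 0.10, adjusted p = 3.72e-05). The calcium channel Mcoln1 rose by 0.83, the saposin precursor Psap by 0.71, Ctsb by 0.78, Grn by 0.71 and Lamp1, a second membrane protein, by 0.44 on the log2 scale.

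The 3 that fell included the genes of both factors. Tfe3 was at 123, 109.6 and 114 against 228, 223 and 244 CPM (log2 fold change -1.002 ± 0.07, adjusted p = 1.33e-06; ENSMUSG00000000134, chromosome X, 7762560 to 7775202), low in every PRDM14-labelled library. Tfeb was at 21.97, 19.01 and 24.6 against 27.99, 31.8 and 37.2 CPM (log2 fold change -0.56 ± 0.14, adjusted p = 0.00755), and its call was lost without wild-type replicate 3 (adjusted p = 0.0542). Manba, a mannosidase, was the hydrolase that fell, with 38.6, 25.2 and 32.8 against 89.6, 90.6 and 89.1 CPM (log2 fold change -1.48 ± 0.13, adjusted p = 5.42e-06). RNA levels say nothing of where the factors are in the cell, which is how they are known to be controlled.

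Promoters were searched for the CLEAR element, and its part in the rises of this list was not tested. RefSeq promoters (GRCm38.p6, 250 bases before to 50 after a start) were at hand for 10557 of the 16532 genes tested. The core of the CLEAR element, TCACGTGA, which is its own reverse complement, was in a promoter of 2.02% of these genes. It was in 3.01% of those that rose, 2.14% of those that fell and 1.75% of those not called. Of the 23 lysosome genes with a promoter 5 held it (21.7%): Mcoln1, Ctsa, Ctsd, Gla and Atp6v0d1. Members that rose without this core included Hexa, Lamp2, Neu1, Npc2, Psap and Grn. CACGTG, the E-box that lies within that core, was in 11.7% of all and in 10 of the 23 (43.5%). A match is only a match of letters. The 250 bases before the start are shown for 4 of the 5, since they show where the core lies in genes that rose, from 73.9, 67.5 and 68.1 to 100.2, 117 and 126 CPM for Ctsa and from 26.9, 25.98 and 21.9 to 43.2, 47.02 and 42.7 CPM for Mcoln1. Ctsd and Gla rose by 0.54 and 0.41 on the log2 scale, Gla with its call lost without PRDM14-labelled replicate 1 or wild-type replicate 2 or 3. The core begins 46 bases before the start of Mcoln1, 13 before that of Ctsa, 99 before that of Ctsd, and first at 228 before that of Gla, which holds 2. In Atp6v0d1 it lies across the start. Each sequence runs 5′ to 3′ on the strand of its gene, with the core in capitals: chr8:3500269-3500518 (+) for Mcoln1, chr2:164833523-164833772 (+) for Ctsa, chr7:142387828-142388077 (-) for Ctsd and chrX:134601006-134601255 (-) for Gla.
Mcoln1: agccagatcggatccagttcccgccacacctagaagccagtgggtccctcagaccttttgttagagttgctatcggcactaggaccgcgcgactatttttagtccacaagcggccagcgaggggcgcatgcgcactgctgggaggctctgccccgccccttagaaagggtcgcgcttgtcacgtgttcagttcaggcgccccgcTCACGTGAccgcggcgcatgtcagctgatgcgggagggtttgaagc
Ctsa: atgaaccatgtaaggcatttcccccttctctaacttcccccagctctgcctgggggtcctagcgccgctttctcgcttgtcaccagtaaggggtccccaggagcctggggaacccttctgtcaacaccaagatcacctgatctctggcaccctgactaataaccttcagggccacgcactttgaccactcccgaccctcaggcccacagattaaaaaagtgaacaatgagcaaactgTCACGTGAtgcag
Ctsd: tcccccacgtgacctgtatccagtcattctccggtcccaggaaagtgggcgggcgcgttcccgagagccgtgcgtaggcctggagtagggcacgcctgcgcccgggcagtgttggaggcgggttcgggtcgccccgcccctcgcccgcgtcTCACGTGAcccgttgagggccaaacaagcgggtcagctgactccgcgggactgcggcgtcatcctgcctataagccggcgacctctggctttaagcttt
Gla: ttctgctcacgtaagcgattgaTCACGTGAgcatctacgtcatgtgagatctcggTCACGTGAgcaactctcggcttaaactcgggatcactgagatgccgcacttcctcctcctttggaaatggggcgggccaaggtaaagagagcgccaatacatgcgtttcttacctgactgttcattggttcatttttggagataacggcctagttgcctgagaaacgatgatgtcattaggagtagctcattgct

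Glycolysis turns glucose into pyruvate and lactate, and its genes are known targets of the hypoxia factor HIF1A. Among the 33 listed with hypoxia genes, 20 were called as rises, 3 as falls and 10 not at all, with a median log2 fold change of 0.46, and 19 to 21 rose when each library was left out in turn. Along the pathway Gpi1, the isomerase, was at 1252, 1090.4 and 1048 against 762, 721 and 715 CPM (log2 fold change 0.63 ± 0.09, adjusted p = 0.000143). Aldoa, the aldolase, was at 2256, 2445 and 2456 against 1564, 1554 and 1533 CPM (log2 fold change 0.62 ± 0.07, adjusted p = 2.78e-05; ENSMUSG00000030695, chromosome 7, 126795234 to 126800751). Pgk1, phosphoglycerate kinase, was at 99.9, 109 and 130.4 against 59.8, 48.1 and 60.7 CPM (log2 fold change 1.004 ± 0.12, adjusted p = 5.99e-05). Every PRDM14-labelled library was above every wild-type library for these genes. Gapdh, Pgam1 and Pfkm, also of the pathway, were among those not called. Ldhb, a subunit of lactate dehydrogenase on chromosome 6, was at 474, 385 and 339 against 134, 116 and 107 CPM (log2 fold change 1.75 ± 0.12, adjusted p = 1.09e-06), with a log2 fold change of 1.61 without replicate 1. Slc16a3, the lactate exporter, was at 323, 334 and 336 against 209, 224 and 221 CPM (log2 fold change 0.60 ± 0.06, adjusted p = 1.86e-05).

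Some hypoxia-induced genes outside the pathway rose as well. Bnip3, a mitophagy receptor, was at 201, 191 and 172 against 104, 83.3 and 90.4 CPM (log2 fold change 1.02 ± 0.09, adjusted p = 5.33e-06), and Ero1l, an oxidase of the endoplasmic reticulum, at 202, 262 and 199 against 108, 95.2 and 107 CPM (log2 fold change 1.09 ± 0.11, adjusted p = 1.28e-05). Egln1, the oxygen sensor that marks HIF1A for breakdown, was at 178, 198 and 136 against 76.9, 74.3 and 69.9 CPM (log2 fold change 1.21 ± 0.12, adjusted p = 2.05e-05). Within the pathway Aldoc, another aldolase, rose by 1.24 on the log2 scale. Car9, Egln3, Adm and Ankrd37, which hypoxia also induces, were not called (adjusted p = 0.816, 0.732, 0.844 and 0.107). Ero1l, Egln1 and Aldoc were highest in replicate 2. The hypoxia factors themselves fell: Epas1, which encodes HIF2A, was at 23.5, 14.1 and 8.94 against 73.9, 80.8 and 76.3 CPM (log2 fold change -2.31 ± 0.27, adjusted p = 0.000287) and Hif1a at 147, 159 and 144 against 181, 197 and 203 CPM (log2 fold change -0.37 ± 0.08, adjusted p = 0.00315). Pdk1, a kinase that closes the entry to the citric acid cycle, fell by 0.81. Not called were the glucose transporter Slc2a1, with 879, 598 and 522 against 693, 688 and 693 CPM (adjusted p = 0.833), and the hexokinase Hk2, with 664, 386 and 332 against 449.5, 428 and 459.6 CPM (adjusted p = 0.897). Hk2 lies on chromosome 6, and both genes were highest in replicate 1. Without that replicate 20 genes of the list rose and 5 fell.

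The core of the element bound by HIF, ACGTG, was in a promoter of 20 of the 29 genes of this list that had one (69.0%), and of 28.9% of all genes with a promoter. It is short, and it lies within the E-box. Over all genes it was in 31.4% of those that rose, 29.3% of those that fell and 28.1% of those not called. Members of the list that rose without it were Ldhb, Gpi1, Tpi1, Pfkl, Eno1, Pfkp and Eno2. Of the members not called, Ankrd37, Gapdh, Pgam1, Pfkm, Slc16a1, Egln3, Car9, Slc2a1 and Hk2 held it, and only Adm did not. Within the list the core was thus not commoner among members that rose. The part of the core in the rises was not tested. The 250 bases before the start of Ldha and Pgk1, which both rose (log2 0.45 and 1.004), show how the core, in capitals on either strand, is spaced at glycolysis genes: chr7:46845554-46845803 (+) for Ldha and chrX:106186850-106187099 (+) for Pgk1. Ldha holds 5 matches on both strands together and Pgk1 holds 2. Each CACGTG in Ldha is counted on both strands, so its marked sites are fewer than its matches.
Ldha: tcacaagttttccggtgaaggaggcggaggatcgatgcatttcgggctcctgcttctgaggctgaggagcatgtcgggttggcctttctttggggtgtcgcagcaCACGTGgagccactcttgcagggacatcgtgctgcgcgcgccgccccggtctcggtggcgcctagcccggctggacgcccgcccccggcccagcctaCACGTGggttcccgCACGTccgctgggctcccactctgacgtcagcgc
Pgk1: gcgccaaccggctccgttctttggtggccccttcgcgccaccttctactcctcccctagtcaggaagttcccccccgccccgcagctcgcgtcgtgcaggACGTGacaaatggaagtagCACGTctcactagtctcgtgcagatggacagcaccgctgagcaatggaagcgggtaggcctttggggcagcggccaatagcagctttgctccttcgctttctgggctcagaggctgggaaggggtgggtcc

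Cholesterol is made from acetyl-CoA by a chain of enzymes whose genes the SREBP factors induce. Of 25 genes tested 16 rose, 0 fell and 9 were not called, with a median log2 fold change of 0.41. The counts were 13 to 18 rises when each library was left out in turn, and 13 rises with 1 fall without PRDM14-labelled replicate 1. Fdps, which makes farnesyl diphosphate, was at 170.3, 176 and 169.7 against 119, 108 and 109 CPM (log2 fold change 0.62 ± 0.08, adjusted p = 0.00011). Insig1, which holds SREBP in the endoplasmic reticulum and is its target, was at 169, 138 and 152 against 97.8, 97.9 and 96.9 CPM (log2 fold change 0.65 ± 0.10, adjusted p = 0.00027). Cyp51 was at 158, 146 and 145 against 109, 101 and 109 CPM (log2 fold change 0.49 ± 0.07, adjusted p = 0.00031), Dhcr7, the last step, rose by 0.53, and the factor Srebf1 rose by 0.48. Sqle, at 111, 107 and 101 against 105, 105 and 103 CPM, and Idi1, at 9.27, 8.32 and 9.88 against 9.31, 8.39 and 9.18 CPM, were among those not called (adjusted p = 0.835 and 0.919). Hmgcs1 was not analysed here. The sterol element core CACCCCAC was in a promoter of 1 of 17 of these genes (5.88%) and of 3.86% of all. Cores of other factors were searched in the same promoters. GTCTCTA, the PRDM14 core, was in 2.95% of rises, 2.91% of falls and 3.35% of genes not called. CCGGAAG, the ETS core, was in 13.2%, 21.6% and 19.3% of these, and in 0 of 12 ERK target and feedback genes.

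**Figure D3:**
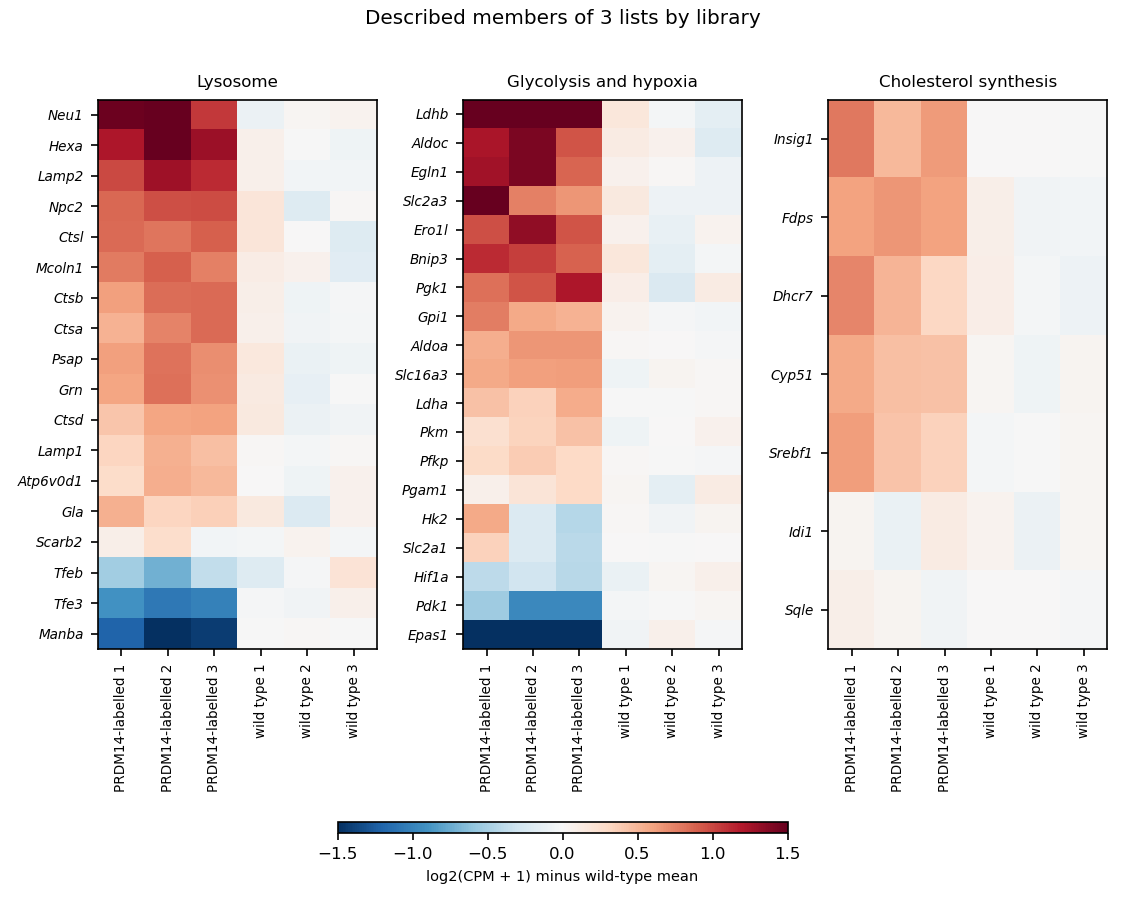
Each row is a described member of the lysosome, glycolysis and hypoxia, or cholesterol list and each column a library, coloured by log2(CPM + 1) minus the mean of the 3 wild-type libraries, with colours ending at 1.5 on either side. Most of the genes drawn are red in all 3 PRDM14-labelled columns, while Tfe3, Tfeb, Manba, Epas1, Pdk1 and Hif1a are blue.

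More genes of the amino acid response and of tRNA charging fell than rose. Of 28 tested 13 fell and 3 rose, with a median log2 fold change of -0.22. The tRNA synthetase genes Aars, Cars and Mars fell by little (log2 -0.26, -0.21 and -0.30), and each lost its call without wild-type replicate 3. Chac1, which breaks down glutathione, was at 13.7, 10.9 and 12.4 against 34.7, 35.2 and 35.5 CPM (log2 fold change -1.51 ± 0.15, adjusted p = 1.25e-05). Slc7a3, a transporter of arginine and lysine, was at 62.2, 40.5 and 44.6 against 178, 193 and 198 CPM (log2 fold change -1.95 ± 0.19, adjusted p = 5.48e-05), and Slc7a5, of large neutral amino acids, at 404, 378 and 304 against 569, 579 and 613 CPM (log2 fold change -0.70 ± 0.10, adjusted p = 0.000177). These were low in every PRDM14-labelled library. Ddit3, a stress factor that overlaps Mars in the annotation, went up to 23.3, 20.9 and 16.4 from 9.82, 8.59 and 7.53 CPM (log2 fold change 1.22 ± 0.18, adjusted p = 0.000234). Asns, asparagine synthetase on chromosome 6, was at 729, 519.8 and 529.9 against 381, 334 and 345 CPM (log2 fold change 0.75 ± 0.12, adjusted p = 0.000507), with a log2 fold change of 0.57 without replicate 1. Atf4, the factor that drives these genes, was at 379, 297 and 290.1 against 407, 393 and 380.1 CPM, and its small fall (adjusted p = 0.0363) was lost without any 1 library other than PRDM14-labelled replicate 1. Without wild-type replicate 2 or 3 the list had 8 or 7 falls. Among 21 genes of serine, glycine and one-carbon metabolism 5 fell and 2 rose, led by Mat2b (log2 -0.47) and Shmt2 (-0.39), and 1 of the rises was called without wild-type replicate 2.

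Genes of the ribosome and the respiratory chain moved little. Of 82 cytosolic ribosomal protein genes 26 rose and 2 fell, with a median log2 fold change of 0.26, and Rpl22 (log2 0.47) and Rps20 (0.40) led. The count of rises turned on single libraries, with 42 without PRDM14-labelled replicate 1, 12 without its replicate 3, 15 without wild-type replicate 2 and 7 without wild-type replicate 3. Many ribosomal protein genes have near-identical pseudogenes, between which reads may be split. Of 78 genes of oxidative phosphorylation 6 rose, 3 fell and 69 were not called, with a median of 0.07, or 11 rises without PRDM14-labelled replicate 2 and 5 falls without replicate 3. Ndufa4l2, a hypoxia-induced relative of a subunit, was the largest change named in that list, with 37.1, 59.9 and 43.3 against 14.2, 12.5 and 11.9 CPM (log2 fold change 1.86 ± 0.27, adjusted p = 0.000754), and it overlaps Shmt2.

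Cyclins and inhibitors of the entry into S phase changed in both directions. Falls were 30.4% of G1 genes, 23.1% of replication genes and 17.1% of mitosis genes, against 15.3% of all genes. Rises were 21.7%, 0% and 5.71%, against 14.6% of all. Of 23 G1 genes 7 fell and 5 rose, and without PRDM14-labelled replicate 2 or wild-type replicate 2 or 3 it was 3 that rose. With Ccnd1, Ccnd3 fell to 119.9, 105 and 78.7 from 204, 203 and 211 CPM (log2 fold change -1.02 ± 0.12, adjusted p = 5.27e-05), and Ccne1, cyclin E, to 189, 119.7 and 142 from 330.5, 338 and 338 CPM (log2 fold change -1.16 ± 0.14, adjusted p = 0.00012). E2f4, a repressor of the cycle, fell by 0.73 and Cdk6 by 0.98 on the log2 scale. The kinase inhibitor Cdkn1a, known as p21, was at 191, 257 and 192 against 95.4, 76.3 and 70.9 CPM (log2 fold change 1.40 ± 0.16, adjusted p = 0.000146), highest in replicate 2. Cdkn2a rose by 0.73 and Cdkn2c by 1.10 at low levels. Of 39 replication genes 9 fell and 0 rose, with Orc2 (log2 -0.70) and Rfc5 (-0.56) first. There were 5 falls and 2 rises without PRDM14-labelled replicate 2, and 4 falls without wild-type replicate 2 or 3. Of 35 mitosis genes 6 fell and 2 rose, led by Cdc20, an activator of the anaphase complex (log2 -0.67), with 4 and 1 without PRDM14-labelled replicate 2, and 3 and 1 without wild-type replicate 2 or 3.

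Trp53 fell while several of its known targets rose. Trp53 was at 266, 245 and 279 against 393, 402 and 433 CPM (log2 fold change -0.64 ± 0.08, adjusted p = 4.74e-05). Ddit4, an inhibitor of mTOR that hypoxia also induces, was at 258, 214 and 214 against 109.95, 115 and 109 CPM (log2 fold change 1.04 ± 0.08, adjusted p = 2.59e-06), and Ccng1, cyclin G1, at 293, 294 and 290.1 against 211, 187 and 204 CPM (log2 fold change 0.55 ± 0.10, adjusted p = 0.000818). Both targets were high in each PRDM14-labelled library. Tnfrsf10b rose by 0.55 on the log2 scale, and Sesn2, which is also in the stress list, fell by 0.35. Mdm2, at 239, 196 and 182 against 204, 193 and 193 CPM, and Bax, at 126, 108 and 117 against 129, 127 and 134 CPM, were not called (adjusted p = 0.715 and 0.189). Of 24 genes 11 rose and 6 fell, but without PRDM14-labelled replicate 1 it was 6 and 3, without wild-type replicate 2 it was 6 and 4, and without wild-type replicate 3 it was 7 and 3. Without PRDM14-labelled replicate 3 or wild-type replicate 1 it was 3 that fell.

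Of 13 genes of the Myc and Max network 6 fell and 1, Mxd1, rose (log2 0.57, lost without PRDM14-labelled replicate 1 or 2 or wild-type replicate 1). Beside Myc, Mycn was at 149, 143 and 207 against 315, 318 and 349.6 CPM (log2 fold change -0.98 ± 0.21, adjusted p = 0.00773) and the partner Max fell by 0.54. Lin28a, which blocks the microRNA let-7, was at 268, 268 and 253 against 506, 506 and 537 CPM (log2 fold change -0.97 ± 0.08, adjusted p = 3.04e-06). Its relative Lin28b was at 61.5, 58.4 and 51.9 against 88.1, 97.2 and 91.6 CPM (log2 fold change -0.69 ± 0.11, adjusted p = 0.00039). Neither group of libraries overlapped the other in these genes. Trim71, a target of let-7, fell by 0.88 and Igf2bp1, an RNA-binding target of let-7, by 0.48 on the log2 scale, and of 11 genes of this pathway 6 fell and 1 rose, or 2 without PRDM14-labelled replicate 1.

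Of 19 genes of H3K9 methylation and silencing 8 fell, 0 rose and 11 were not called, and without PRDM14-labelled replicate 2 it was 1 that rose. With Trim28, the histone chaperone Daxx was at 81.8, 88.1 and 86.4 against 127, 142 and 147 CPM (log2 fold change -0.70 ± 0.08, adjusted p = 2.81e-05), and Ehmt2, the methyltransferase G9a, at 179.7, 191 and 155 against 273, 271 and 280.4 CPM (log2 fold change -0.65 ± 0.09, adjusted p = 0.000206). Each was low in all PRDM14-labelled libraries. Zfp57, which guards imprints through TRIM28, was at 128, 50.5 and 59.8 against 276, 313 and 289 CPM (log2 fold change -1.88 ± 0.36, adjusted p = 0.00788), with replicate 1 above replicates 2 and 3. Setdb1 was not called (adjusted p = 0.07). Of 26 genes of the HDAC, NuRD and SIN3 complexes 12 fell and 3 rose. Sin3a was at 221, 218 and 220.5 against 315, 316 and 338 CPM (log2 fold change -0.55 ± 0.06, adjusted p = 3.7e-05), while its relative Sin3b was at 134, 137 and 141 against 107, 107 and 107 CPM (log2 fold change 0.36 ± 0.07, adjusted p = 0.0024). Rcor2 fell by 0.70, and the NuRD subunits Mbd3, Chd4 and Gatad2a by 0.49, 0.60 and 0.44 on the log2 scale. Without PRDM14-labelled replicate 3 or wild-type replicate 3, 1 of the 3 rises was left.

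Some tight junction and matrix genes rose. In bulk RNA, more cells of a type and more RNA per cell cannot be told apart. Of 16 tight junction genes 6 rose, 1 fell and 9 were not called, and 6 rose and 1 fell without each library in turn. Cldn6 was at 99.1, 142 and 104 against 56.5, 56.6 and 59.7 CPM (log2 fold change 0.998 ± 0.15, adjusted p = 0.000497) and Cldn7 at 30.8, 52.2 and 33.8 against 20.7, 18.2 and 19.1 CPM (log2 fold change 1.005 ± 0.19, adjusted p = 0.00186). Replicate 2 was the highest PRDM14-labelled library for both, as for Cldn4. Replicate 2 also led for the epithelial keratins Krt8, at 59.4, 218 and 55.5 against 27.4, 18.99 and 20.6 CPM, and Krt18, at 44.99, 142 and 50.9 against 27.5, 20.3 and 24.5 CPM, which were not called (adjusted p = 0.0572 and 0.0761).

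Of 26 collagen, laminin and basement membrane genes 9 rose, 2 fell and 15 were not called. Plod2, an enzyme that modifies collagen, was at 126, 140.3 and 131 against 74.3, 72.7 and 74.99 CPM (log2 fold change 0.84 ± 0.08, adjusted p = 5.12e-06), and P4ha1, a prolyl hydroxylase, at 110.1, 127 and 107 against 52.9, 41.6 and 43.2 CPM (log2 fold change 1.32 ± 0.12, adjusted p = 6.39e-06). Both are also known as hypoxia-induced genes. Lama5, a laminin chain of basement membranes, was at 607, 601 and 545 against 354, 303 and 332 CPM (log2 fold change 0.83 ± 0.08, adjusted p = 6.39e-06). Serpinh1, the collagen chaperone, rose by 1.03, and Col18a1 fell by 0.61 on the log2 scale. For Plod2, P4ha1 and Lama5 the values within each group were close, and the groups did not overlap. Of 20 feeder fibroblast markers 4 rose, 1 fell and 15 were not called. Their median log2 fold change was 0.63, and 15 of the 20 were above 0. For 8 of them every PRDM14-labelled library was above every wild-type library, and for 1 every library was below. Their summed level was 920.3, 1879 and 1103 CPM in the PRDM14-labelled libraries and 558.3 to 663.9 CPM in wild type. Col1a1 was at 245, 578 and 325 against 114, 91.1 and 91.3 CPM (log2 fold change 1.95 ± 0.43, adjusted p = 0.016), and lost its call without wild-type replicate 2 or 3 (adjusted p = 0.0542 and 0.0586). Dcn was at 0.932, 1.88 and 2.31 CPM in the PRDM14-labelled libraries and 2.28, 1.099 and 2.003 CPM in wild type. Twist2 was at 0.117, 0.547 and 0.375 against 0.857, 0.999 and 0.276 CPM. Both were at low levels and among the 15 not called. Dcn and Twist2 do not stand for the list, whose called members other than Col1a1 are counted here but not named. Without wild-type replicate 2 no marker was called to rise or fall, without wild-type replicate 3 it was 1 and 1, without PRDM14-labelled replicate 3 it was 4 and 0, and without replicate 1 it was 7 and 1, while DESeq2 called 8 rises. The part of feeder cells in the matrix result was not tested.

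Interferon and MHC class I genes went both ways, with 8 rises and 6 falls of 23 tested. Ddx58, which encodes the RNA sensor RIG-I, was at 13.6, 12.3 and 12.4 against 38.3, 45.1 and 37.1 CPM (log2 fold change -1.65 ± 0.18, adjusted p = 3.23e-05). The class I heavy chain H2-K1 was at 39.7, 42.03 and 28.3 against 18.7, 21.7 and 20.4 CPM (log2 fold change 0.86 ± 0.18, adjusted p = 0.00397), and B2m, its light chain, at 31.6, 59.9 and 57.2 against 24.4, 18.7 and 19.3 CPM (log2 fold change 1.24 ± 0.27, adjusted p = 0.00748). H2-K1 has near-identical relatives between which reads may be split. Stat2, a factor of the interferon response, rose by 0.61 on the log2 scale. Without PRDM14-labelled replicate 2 or wild-type replicate 2 it was 5 that rose. Psmb9 was not analysed here.

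Markers of other cell types were mostly at low levels. Among the trophoblast markers 4 of 9 tested rose: Tfap2c, an AP-2 factor also of germ cells, was at 109, 92.5 and 90.7 against 57.8, 54.9 and 53.7 CPM (log2 fold change 0.81 ± 0.10, adjusted p = 6.56e-05), and Krt7, Gata3 and Cdx2 rose but stayed under 10 CPM in these 6 libraries, Cdx2 with its call lost without PRDM14-labelled replicate 3 or wild-type replicate 2 or 3. Their summed level was 242.7, 473.5 and 217.7 CPM against 108.3 to 130.1 CPM in wild type, most of it from Tfap2c, Krt8 and Krt18. Gata4, of primitive endoderm, was at 11.1, 5.16 and 7.07 against 2.63, 2.199 and 2.97 CPM (log2 fold change 1.57 ± 0.29, adjusted p = 0.00119). Sox7, another endoderm factor, fell by 1.86 on the log2 scale at under 3 CPM in each library (adjusted p = 0.0398), a call lost without any 1 library other than PRDM14-labelled replicate 1. The other 7 of the 9 endoderm markers tested were not called. Nes, an intermediate filament of neural precursors, was at 86.8, 154 and 141 against 62.4, 59.1 and 58.6 CPM (log2 fold change 1.08 ± 0.17, adjusted p = 0.00115), while Pax6, a neural factor, was at 0.641, 1.52 and 1.75 against 7.08, 8.19 and 8.22 CPM (log2 fold change -2.58 ± 0.31, adjusted p = 5.28e-05). Dppa3, of naive and germ cells, was at 33.2, 24.2 and 27.4 against 9.77, 8.59 and 7.87 CPM (log2 fold change 1.69 ± 0.15, adjusted p = 4.11e-06), and Prdm1, a relative of Prdm14 in germ cells, rose by 0.999 on the log2 scale. Ddx4 and Dazl, later germ cell genes, were not called (adjusted p = 0.344 and 0.722). The gene lists of other lineages were short, and their part in the results above was not tested.

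Some genes set the PRDM14-labelled libraries apart from each other. Of 10177 genes with a mean of at least 10 CPM over both groups, 219 (2.15%) spread over at least 1 on the log2 scale within the PRDM14-labelled libraries and 44 (0.43%) did so within wild type, and the median spread was 0.265 and 0.168. The Y-linked factor Zfy1 was at 0.991, 9.23 and 42.9 against 2.399, 0.3997 and 1.105 CPM and Zscan4d, a gene of the state that resembles the early cleavage embryo and has near-identical copies, at 3.44, 10.9 and 60.2 against 38.3, 29.8 and 28.4 CPM. Both were highest in replicate 3 and lowest in replicate 1, and neither was called (adjusted p = 0.088 and 0.791). Without replicate 3 the log2 fold change of Zfy1 was 1.85 and that of Zscan4d -2.17, which was then called as a fall, and without replicate 1 Zfy1 was called as a rise (log2 4.18). Cubn, an endocytic receptor, was at 25.9, 3.52 and 2.88 CPM in the PRDM14-labelled libraries, high in replicate 1, and Kif1a, a kinesin, at 21.4, 121 and 61.7 CPM, low in replicate 1. Kif1a was not called, but rose by 2.28 on the log2 scale without replicate 1.

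Of 8 Y-linked genes tested 4 rose. Ddx3y, an RNA helicase, was at 113, 130.3 and 211 against 48.2, 47.4 and 45.7 CPM (log2 fold change 1.68 ± 0.21, adjusted p = 0.000358), Uty, a demethylase relative, at 50.7, 57.3 and 115 against 16.4, 12.2 and 16.2 CPM (log2 fold change 2.30 ± 0.32, adjusted p = 0.00115), and Eif2s3y, a translation initiation factor, at 66.8, 98.4 and 223 against 26.3, 14.6 and 20.5 CPM (log2 fold change 2.64 ± 0.49, adjusted p = 0.00775). Replicate 3 was the highest for each, and replicates 1 and 2 were also above wild type. Without replicate 3 the log2 fold changes of Ddx3y, Uty and Eif2s3y were 1.37, 1.85 and 1.998, and all 3 were still called. Kdm5d, a histone demethylase, rose by 3.19 on the log2 scale, or by 2.24 without replicate 3. Zfy1, Zfy2, Uba1y and Usp9y were not called, while without replicate 3 Usp9y was called as a fall (log2 -2.12).

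Chromosome 6 stood apart in PRDM14-labelled replicate 1. Over its 754 genes tested, the median difference of log2 CPM from the wild-type mean was 0.375 in replicate 1, -0.017 in replicate 2 and 0.004 in replicate 3. On the other autosomes and the X chromosome it was -0.050 to 0.145 over all 3 libraries, the highest value being that of chromosome 13 in replicate 3. Replicate 1 was the highest of the 3 for 74.1% of genes on chromosome 6 and for 31.1% of genes elsewhere. Along the chromosome, in 15 consecutive groups of 50 genes, its median ran from 0.145 to 0.639, highest in the first group and above 0 in each, while the other 2 libraries ran from -0.301 to 0.278. In the remaining 4 genes at the end the medians of replicates 1, 2 and 3 were -0.615, -0.728 and -0.663. This changed the calls on the chromosome, from 126 rises and 67 falls with replicate 1 to 99 and 154 without it. Of the rises 92 were called both ways, 34 were lost and 7 gained. Of the falls 65 were called both ways, 2 were lost and 89 gained. When the genes of chromosome 6 were left out of the fit 4835 genes were called. The main fit called 4748 outside that chromosome, of which 4740 were among them.

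**Figure D4:**
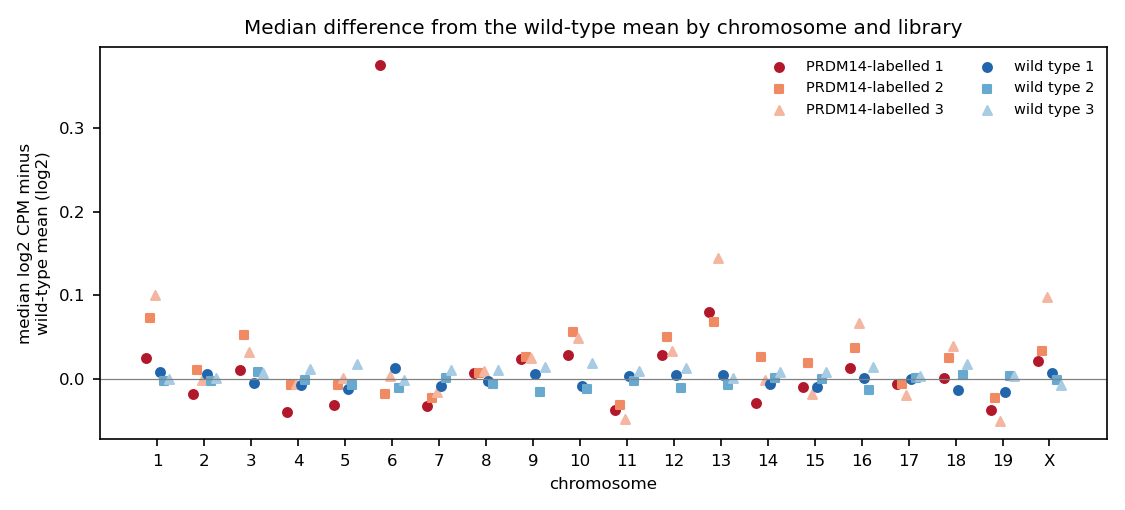
Median over genes of log2 CPM in a library minus the wild-type mean, by chromosome without the Y, for the 3 PRDM14-labelled (red shades) and 3 wild-type (blue shades) libraries. PRDM14-labelled replicate 1 reaches 0.375 on chromosome 6, and all other points lie between -0.050 and 0.145.

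The PRDM14-labelled libraries differed from the CBFA2T2 knockout in far fewer genes than from wild type. In this comparison, which wild type enters through the shared estimate of the spread, 141 genes were called (0.853%), 85 higher and 56 lower in the PRDM14-labelled group, and 2495 had an unadjusted p under 0.05. Fitted on these 6 libraries alone it called 26 genes, of which 24 were among the 141. With the replicate number as a block 392 were called, among them all 141. The count turned on single libraries: 24 without CBFA2T2 knockout replicate 2, 36 without its replicate 1, 242 without its replicate 3, 72 without PRDM14-labelled replicate 3 and 602 without its replicate 2. DESeq2 called 602 as well.

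Rasgrp3, an activator of RAS, had the largest difference among the genes named. It was at 0.699, 0.607 and 1.56 CPM in the PRDM14-labelled libraries, 20.8, 22.7 and 16.9 CPM in the CBFA2T2 knockout and 0.628, 0.999 and 0.345 CPM in wild type (PRDM14-labelled over CBFA2T2 knockout, log2 fold change -4.40 ± 0.32, adjusted p = 3.37e-05). Lzts1, with 2.51, 2.61 and 2.13, 10.7, 8.49 and 9.62 and 0.685, 0.6995 and 0.7596 CPM in the same order of groups (log2 fold change -1.99 ± 0.21, adjusted p = 0.00091), and Scube1, a secreted protein, with 1.52, 1.15 and 0.875, 6.22, 6.66 and 8.07 and 0.571, 0.3997 and 0.691 CPM (log2 fold change -2.55 ± 0.29, adjusted p = 0.00113), were also low in the PRDM14-labelled libraries. Donson, a replication gene that overlaps others, was at 26.2, 26.8 and 23.9, 55.1, 56.4 and 72.6 and 28.05, 25.3 and 27.6 CPM (log2 fold change -1.26 ± 0.12, adjusted p = 0.000237). In these 4 genes the CBFA2T2 knockout was the group that stood high. Kirrel, Rin3, Slc5a5 and Chst15 completed the falls named (log2 -0.98, -2.24, -1.72 and -1.14).

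Among the rises, Pfkp, a phosphofructokinase, was at 163, 173 and 164 CPM in the PRDM14-labelled libraries, 95.04, 102 and 102 CPM in the CBFA2T2 knockout and 135, 133 and 132 CPM in wild type (log2 fold change 0.74 ± 0.07, adjusted p = 0.000237). Pgam1, phosphoglycerate mutase, was at 86.1, 93.5 and 101, 43.7, 43.4 and 54.4 and 83.2, 73.9 and 88.7 CPM (log2 fold change 0.99 ± 0.11, adjusted p = 0.00091). With Pgk1 and Pkm (log2 0.78 and 0.49), 4 of 33 glycolysis and hypoxia genes were higher than in the CBFA2T2 knockout and 0 were lower. Fgf4, the growth factor of embryonic stem cells, was at 247, 214 and 234, 146, 139.9 and 115 and 289, 292 and 328 CPM (log2 fold change 0.79 ± 0.10, adjusted p = 0.00214), and the nuclear receptors Nr0b1 and Nr5a2 were higher by 1.09 and 0.77. For Fgf4 the PRDM14-labelled libraries lay between the other groups. Esrrb, Tdgf1, Tfcp2l1, Etv5 and Dppa3 were also higher (log2 0.48, 0.90, 0.57, 0.76 and 0.79). Of the PRDM14-labelled libraries replicate 1 was the highest for Dppa3. By list, 3 of 10 stem cell markers, 1 of 17 LIF genes and 1 of 6 germ cell markers were higher, and 0 were lower. Of 20 ERK targets and feedback genes 1 was higher and 1 lower. Nupr1, a stress protein, was at 40.7, 40.1 and 39.7 CPM in the PRDM14-labelled libraries and lower in both other groups, 24.2, 21.1 and 23.7 CPM and 26.9, 21.2 and 22.7 CPM (log2 fold change 0.81 ± 0.11, adjusted p = 0.00631).

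The 2 comparisons with wild type share its libraries, so their values are only set side by side. Against wild type the log2 fold changes of Hexa, Lamp2 and Neu1 were 1.36, 1.14 and 1.42 in the PRDM14-labelled group and 1.29, 1.25 and 1.26 in the CBFA2T2 knockout. Those of Lef1, Rarg and Etv4 were -3.50, -1.72 and -4.04, and -3.61, -1.81 and -5.66. Between the knockout-labelled groups themselves 0 of 30 lysosome genes and 0 of 25 cholesterol genes were called by edgeR's quasi-likelihood test. Of all genes 0.853% were called there, so a count of 0 in lists of this size is no result about the lists. A p that misses the threshold does not show that the groups were alike.

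**Figure D5:**
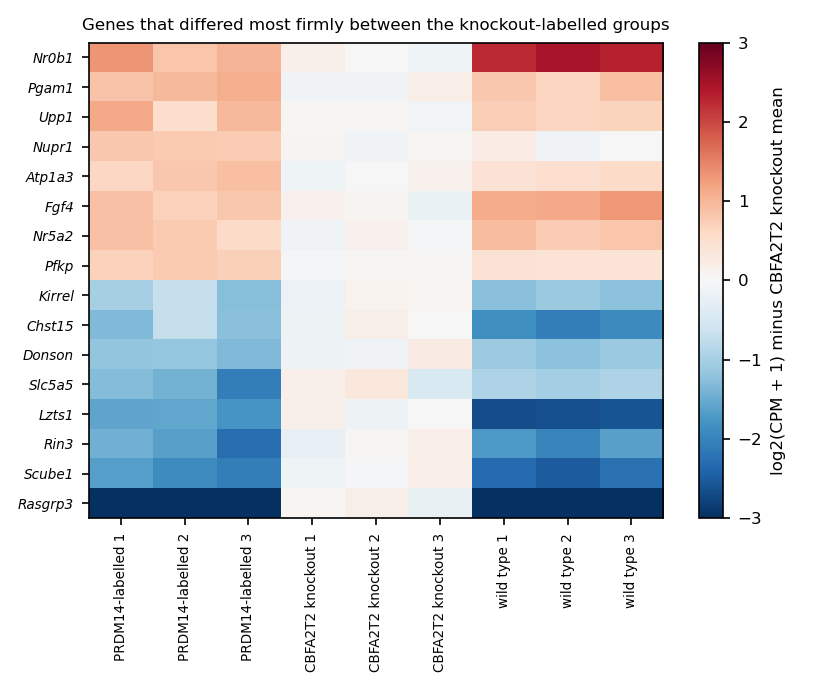
The 16 genes with the lowest adjusted p between the PRDM14-labelled libraries and the CBFA2T2 knockout (8 in each direction), as log2(CPM + 1) minus the mean of the CBFA2T2 knockout, in all 9 libraries. Rows at the top are red, and rows at the bottom blue, in the PRDM14-labelled columns, and Rasgrp3 lies beyond the colour range in both the PRDM14-labelled and the wild-type columns.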

How the data were processed

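RNA of KH2 embryonic stem cells was sequenced as strand-specific polyadenylated libraries, per the labels' protocols. Each deposited table lists whole-number counts by Ensembl gene ID, which the authors had not normalized. Bowtie and mm9 are named in the submitters' processing notes, but coordinates in the tables match GRCm38 (78.1% of 32860 matched IDs had the same start and end in GENCODE). Which program counted, and with what strand setting, is not given in the sources used here. Genes with antisense or overlapping partners are therefore uncertain.

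Counts were fitted with edgeR 4.0.16 in R 4.3.3 (filterByExpr, TMM scaling with factors 0.962 to 1.037, robust quasi-likelihood F test, two-sided) with 1 model of the 3 groups over 9 libraries. P-values were adjusted by Benjamini-Hochberg over the 16532 genes tested and called under 0.05. The standard error is the absolute log2 fold change divided by the square root of F. At 1 CPM a library held about 10 to 20 counts. Without molecular identifiers, counting error is only a floor of the error. The fit was tested on simulated data.

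Samples were grouped by the genotype labels. Lists and members were chosen with earlier results of these data known, and no list was tested as a set. The genes named are Prdm14, Cbfa2t2 and core pluripotency factors, the 20 largest rises and falls, the 10 of lowest adjusted p and the 10 of largest CPM difference per direction (called, not overlapping, at least 5 CPM in the higher group, no gene models or pseudogenes), up to 6 called members per list by adjusted p, the 10 of widest spread, and 8 per direction against the CBFA2T2 knockout. Genes named beyond these were chosen after their values were seen, and a few genes that the rule names are not reported here, though they remain in the fits and counts. Alternatives were DESeq2 1.42.0, its size factors, limma 3.58.1 voom, other filters, a replicate block, a fit of only the groups compared, no chromosome 6 genes and each library left out.

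Same-numbered PRDM14-labelled and CBFA2T2 knockout libraries deviated together in part: the correlations of their deviations from the group means were 0.113, 0.437 and 0.157. The pairing was clearest in replicate 2. PRDM14-labelled replicate 3 correlated about as well with CBFA2T2 knockout replicate 1 (0.159) as with its own number. The labels do not say what the numbers share.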

Additional observations from a re-analysis of the deposited data

How the results depend on the processing

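Against wild type, 4941 genes were called. The count was 5164 with the DESeq2 Wald test, 4925 with DESeq2 size factors, 4781 with limma-voom, 4622 in the compared groups alone, 4738 with no filter, 4424 at a mean of at least 5 CPM and 3416 to 4976 with each library left out, and no called gene changed direction in any of these. It was 1170 when calls also had to be 2-fold. Same-numbered PRDM14-labelled and wild-type libraries did not deviate together (correlations 0.03, -0.076 and 0.019). The replicate block gave 5123, and 4113 in the compared groups alone, which was added after seeing the data. Not every library correlated best with its own number.

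Against the CBFA2T2 knockout, 141 genes were called. The count was 602 with the DESeq2 Wald test, 26 in the compared groups alone, 328 with no filter, 392 with the replicate block and 395 with that block in the compared groups alone, added after seeing the data. It was 24 to 602 with each library left out, and 109 to 196 under the other settings. The cause was not tested.

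Of the gene-and-setting pairs for the 285 genes named against wild type, 4070 kept their side of the threshold, 123 lost a call, 27 gained one and 0 changed direction. Calls in the lists covered 382 of 846 members, and 279 to 404 under the alternatives. The chromosome 6 median of 0.375 in PRDM14-labelled replicate 1 was 0.382 with DESeq2 size factors and 0.383 at a mean of at least 5 CPM. Depth limits genes under about 1 CPM, where a call rests on about 10 to 20 counts a library.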
